A study of Homo sapiens with 6 samples.

Results

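The integrated stress response is a programme in which phosphorylation of the initiation factor eIF2alpha slows protein synthesis and favours translation of the transcription factor ATF4. Besides enzymes and transporters for amino acids, the response is known to raise transcripts of a small group of secreted hormones and cytokines, through which a stressed cell can signal to other tissues. The 8 genes described here belong to that group and were chosen by symbol: GDF15, FGF21, FGF19, ADM2, STC2, VEGFA, CXCL8 and INHBE. Each matched 1 row among the 58735 Ensembl genes of the deposited table. RNA sequencing was done on cells of RKO, an established human colorectal carcinoma line, in 3 libraries of EZA-treated cells and 3 libraries of cells given DMSO, the solvent control. The sources used here neither spell out EZA nor state a dose or duration. Replicates are called biological in the design text, but separate cultures are not described; p-values here measure only the spread among these libraries, which may be technical. EZA was compared with DMSO for differences in transcript abundance.

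GDF15, a distant member of the TGF-beta family, acts on the brainstem receptor GFRAL with its partner RET and reduces appetite. FGF21 and FGF19 are endocrine fibroblast growth factors that need the co-receptor KLB; FGF21 is made mainly by the liver under nutrient stress, and FGF19 by the ileum, from where it restrains bile acid synthesis. ADM2, also called intermedin, is a peptide of the calcitonin family that acts on CALCRL with a RAMP protein. STC2 is a secreted glycoprotein that inhibits the protease PAPP-A, VEGFA is the main growth factor of blood vessels, CXCL8 is a chemokine for neutrophils, and INHBE encodes the subunit of activin E.

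The libraries held 14070611 to 18840954 counts. EZA replicate 3 stood apart, with 0.203% of its counts in mitochondrial genes, against 3.68% to 5.02% in the other 5 libraries. Values without it are given for the tested factors. For other genes with a printed change or level, they are given where leaving it out changed the call or moved the value by over 1.5 times. Of 10 markers of colorectal carcinoma cells, KRT18, KRT8, EPCAM and CDX2 had enough counts to test, CDH1, CDH17 and LGR5 were at 0 in every library, and VIL1, KRT19 and KRT20 had 1 to 4 counts over the 6 libraries. Of 12 markers of blood, vessel, stromal, muscle, liver and glial cells, 5, among them PTPRC and PECAM1, were at 0 in every library, and the whole list summed to 5.47 to 7.54 CPM in EZA libraries and 4.12 to 5.94 in DMSO libraries.

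Of the 8 secreted factors, GDF15 and VEGFA had at least 461 counts in every library and rose by about 2-fold to 3-fold in EZA-treated cells, and INHBE, at a very low level in both groups, rose by a similar fold, with a call that did not hold in every alternative. CXCL8 was detected at a low level with no called change. The other 4 factors were at or near 0: FGF19 and ADM2 had 0 counts in every library, STC2 had 1 count in all, and FGF21 had 6 counts, all in 1 EZA library. Counts were tested with edgeR's quasi-likelihood test over the 13503 genes with enough counts, and a gene was called at an adjusted p below 0.05. By that rule 3 of the 8 factors were called higher and 0 lower, against 9.89% of all genes tested called higher and 7.82% called lower, 17.7% in all. The same 3 factors passed the study's own threshold, which asks for an unadjusted p below 0.05 and at least a 2-fold change. Only that cut-off was taken from the study, and it was applied here to the edgeR test. Of all genes tested 5.73% passed it, 3.77% as higher and 1.96% as lower in EZA. Of the 8 factors 4 entered the test, and since a gene can enter through the group where it is high, no share is drawn from these 4. INHBE entered through the EZA group, so its place among the 3 called is no support for a direction. The 8 factors include untested ones, while the shares above are of tested genes only. The RNA came from bulk cultures, in which fewer cells with a transcript and less RNA per cell cannot be told apart.

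**Figure D1:**
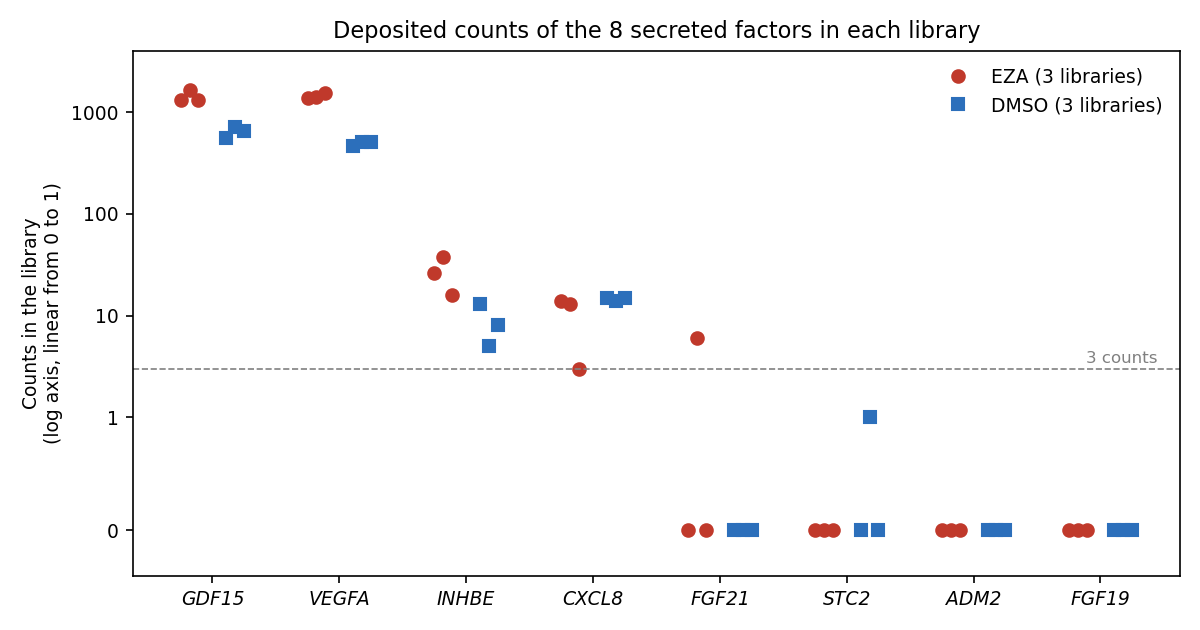
Deposited counts of each secreted factor in each library, EZA libraries as red circles to the left and DMSO libraries as blue squares to the right, on a log axis that is linear from 0 to 1; the dashed line marks 3 counts, the limit that a count of 0 allows. GDF15 and VEGFA have at least 461 counts in every library, INHBE and CXCL8 between 3 and 38, and the 4 factors on the right at 0 in nearly every library.

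Promoter windows of 300 bases, from 250 before to 50 after the transcript start, were taken from RefSeq (GRCh38.p14). They were matched by symbol for 5 of the 8 factors, GDF15, FGF21, CXCL8, STC2 and ADM2, while FGF19, VEGFA and INHBE had no entry. The windows shown are those of a factor that rose, of one that was near 0 and carries the letters of an ATF4-type element, and of one with no called change. A stretch of CHAC1, a stress response gene that rose strongly, follows for comparison. All 4 lie on the plus strand and are written 5′ to 3′, and capitals mark matches to the motifs searched.
GDF15, chr19:18385908-18386207: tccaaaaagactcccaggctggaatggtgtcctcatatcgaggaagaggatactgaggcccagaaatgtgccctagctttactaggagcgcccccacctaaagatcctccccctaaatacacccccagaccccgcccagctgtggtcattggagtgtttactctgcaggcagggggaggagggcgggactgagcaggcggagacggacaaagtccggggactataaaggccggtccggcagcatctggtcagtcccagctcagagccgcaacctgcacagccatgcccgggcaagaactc
FGF21, chr19:48755274-48755573: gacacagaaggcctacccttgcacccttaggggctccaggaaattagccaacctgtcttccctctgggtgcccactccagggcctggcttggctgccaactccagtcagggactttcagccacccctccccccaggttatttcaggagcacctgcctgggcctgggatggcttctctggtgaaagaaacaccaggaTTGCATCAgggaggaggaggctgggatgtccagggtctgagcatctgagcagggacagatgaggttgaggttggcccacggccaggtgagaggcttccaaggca
CXCL8, chr4:73740319-73740618: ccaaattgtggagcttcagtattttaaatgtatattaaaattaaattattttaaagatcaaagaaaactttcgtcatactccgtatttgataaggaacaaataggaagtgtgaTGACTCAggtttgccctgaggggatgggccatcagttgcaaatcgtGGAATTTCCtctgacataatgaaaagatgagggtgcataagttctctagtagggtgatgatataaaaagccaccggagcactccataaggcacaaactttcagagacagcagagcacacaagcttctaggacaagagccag
CHAC1, chr15:40953242-40953289: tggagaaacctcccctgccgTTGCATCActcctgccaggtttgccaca

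The motifs searched on both strands were TGATGNAA, the C/EBP-ATF response element that ATF4 binds, TGACGTCA, the cyclic AMP response element, TGANTCA, the AP-1 site, TGACNNNGC, the core of the antioxidant response element, ACGTG, the core of the hypoxia response element, GGNNTTTCC, of the NF-kB type, and the ER stress response element, CCAAT and CCACG with 9 bases of any kind between them. No motif match overlapped another in these windows. TGATGNAA was found in 1 of the 5 factor windows, that of FGF21, where TTGCATCA on the reverse reading begins at base -54 from the start; 3.62% of the 35116 windows in the table hold this motif. The same 8 letters begin at base -209 in CHAC1. Of 18 other stress response genes that were tested and have a window, 6 hold TGATGNAA, among them CHAC1, ASNS and ATF3. CXCL8 holds TGACTCA at base -137, as do 7.71% of windows for its motif, and GGAATTTCC at base -91, against 6.26% of windows for that motif. The window of STC2 holds a TGACNNNGC match at base 20 after the start, a motif found in 13.3% of windows. GDF15 and ADM2 hold none of the 7 motifs in these windows, which says only that the letters are not there.

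**Figure D2:**
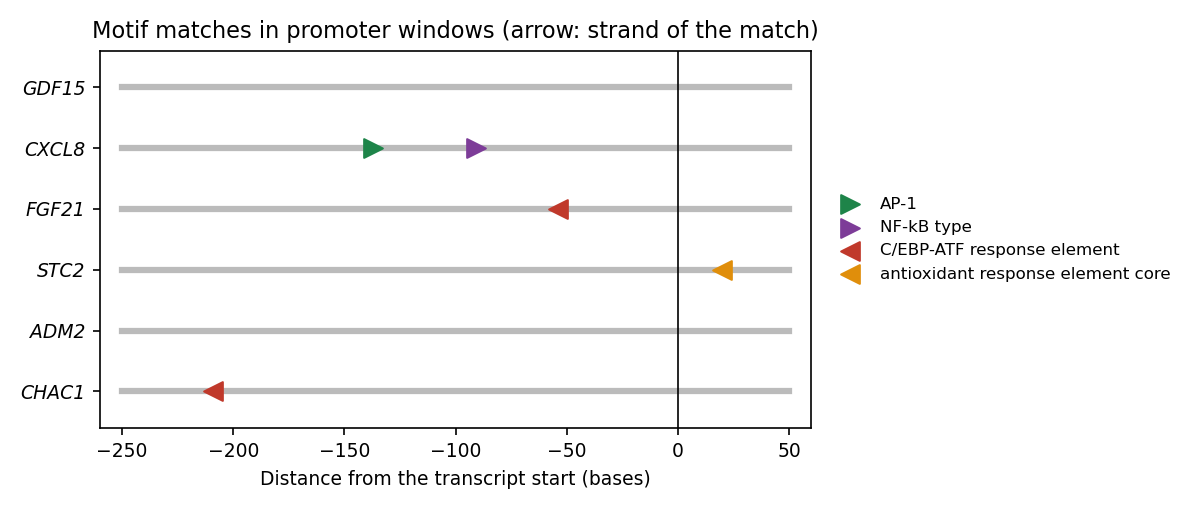
Position of motif matches in the promoter windows of 5 secreted factors and of CHAC1, in bases from the transcript start (vertical line), with arrows for the strand of the match. The C/EBP-ATF response element lies at -54 in FGF21 and at -209 in CHAC1, and the GDF15 and ADM2 windows are empty.

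GDF15 (ENSG00000130513, chromosome 19, 18374731 to 18389176, GRCh38) had 1322, 1629 and 1311 counts in EZA replicates 1 to 3, against 554, 719 and 654 counts in DMSO replicates 1 to 3. Every EZA library lay above every DMSO library, which was so for 21% of all genes tested, and 42.7% did not overlap between the groups in one direction or the other. After scaling to a common library size (CPM), GDF15 was at 88.9 ± 4.48 CPM in EZA and 40.8 ± 5.69 CPM in DMSO (SD, n = 3 each). Its log2 fold change was 1.12 ± 0.14 (SE), a 2.18-fold rise, with an edgeR adjusted p of 0.00330. A microRNA gene, MIR3189, lies inside GDF15 on the same strand and had 13 counts over the 6 libraries, against 6189 for GDF15.

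The size of the GDF15 change depended on whether base composition was adjusted for. Its canonical transcript has a GC content of 62.9%, and the 1418 tested genes within 2.5 percentage points of that had a median log2 fold change of 0.42, against -0.01 over all genes tested. GDF15 lay above 94.1% of these genes of like GC content and above 97.3% of all genes tested. After each library was corrected for trends with GC content and transcript length, its log2 fold change was 0.66 (edgeR adjusted p = 0.00651), under the 2-fold mark of the study. GDF15 was called in all 16 alternatives run, with log2 fold changes of 0.66 to 1.23 and adjusted p of 7.53e-10 to 0.0338, and without EZA replicate 3 its log2 fold change was 1.09.

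VEGFA (ENSG00000112715, chromosome 6, 43770184 to 43786487) had 1372, 1416 and 1542 counts in EZA replicates 1 to 3, against 461, 510 and 508 counts in DMSO replicates 1 to 3. The groups were far apart, with the lowest EZA library well above the highest DMSO library. VEGFA was at 91.4 ± 15.9 CPM in EZA and 31.3 ± 2.12 CPM in DMSO (SD, n = 3 each), a 2.92-fold rise. The log2 fold change was 1.55 ± 0.16 (SE), and the adjusted p by edgeR was 0.00108. The wider spread in EZA came from replicate 3, at 109 CPM, against 87.1 and 78.2 CPM in EZA replicates 1 and 2. Without EZA replicate 3 the log2 fold change was 1.40, and after the GC and length correction it was 1.52. The canonical transcript has a GC content of 51.3%, and the 2089 tested genes of like GC content had a median log2 fold change of 0.05. VEGFA was called in all 16 alternatives run, with log2 fold changes of 1.36 to 1.65 and an adjusted p of at most 0.0196. A long noncoding gene on the opposite strand of VEGFA had 0 counts in every library. Since the libraries do not mark strand, reads of the 2 genes cannot be told apart by strand where they overlap.

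INHBE (ENSG00000139269, chromosome 12, 57452323 to 57459280) had 26, 38 and 16 counts in EZA replicates 1 to 3, against 13, 5 and 8 counts in DMSO replicates 1 to 3. The lowest EZA library and the highest DMSO library were 3 counts apart before scaling, and the groups did not overlap. It was at 1.63 ± 0.484 CPM in EZA and 0.548 ± 0.249 CPM in DMSO (SD, n = 3 each), and its log2 fold change was 1.57 ± 0.42 (SE), with an adjusted p of 0.0361 by edgeR. INHBE entered the test through the EZA group: 3 EZA libraries but 1 DMSO library reached the 0.640 CPM that the filter asks of at least 3 libraries. Its call was lost without EZA replicate 1 or 2 and without DMSO replicate 1, 2 or 3, with an adjusted p of 0.0760 to 0.142, and also after the GC and length correction (0.0668; 0.115 with a replicate block as well). The log2 fold change itself was 1.43 in both corrected fits and 1.31 to 1.96 over all 16 alternatives. It held without EZA replicate 3, at a log2 fold change of 1.76 (adjusted p = 0.000996). A long noncoding gene, ENSG00000287200, overlaps INHBE on the opposite strand and has no row in the table, and the libraries do not mark strand.

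CXCL8 (ENSG00000169429, chromosome 4, 73740519 to 73743716) had 14, 13 and 3 counts in EZA replicates 1 to 3, against 15, 14 and 15 counts in DMSO replicates 1 to 3. EZA replicates 1 and 2 were close to the DMSO libraries, and EZA replicate 3 was lower; after scaling the highest EZA library lay just under the lowest DMSO library. CXCL8 was at 0.606 ± 0.352 CPM in EZA and 0.930 ± 0.0333 CPM in DMSO (SD, n = 3 each). The filter asks for 0.640 CPM in at least 3 libraries, which CXCL8 reached in 3 DMSO libraries but 2 EZA libraries. Lower values of CXCL8 in EZA are thus no support for a direction. Its log2 fold change of -0.58 was not called (edgeR adjusted p = 0.404), and the 95% interval of -1.64 to 0.47 holds both a clear fall and a modest rise. Without EZA replicate 3 it was -0.21, or 0.17 when GC and length were corrected for too. At 32.9% its transcript has the lowest GC content of the 8 factors, and the 260 tested genes of like GC content had a median log2 fold change of -0.42.

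**Figure D3:**
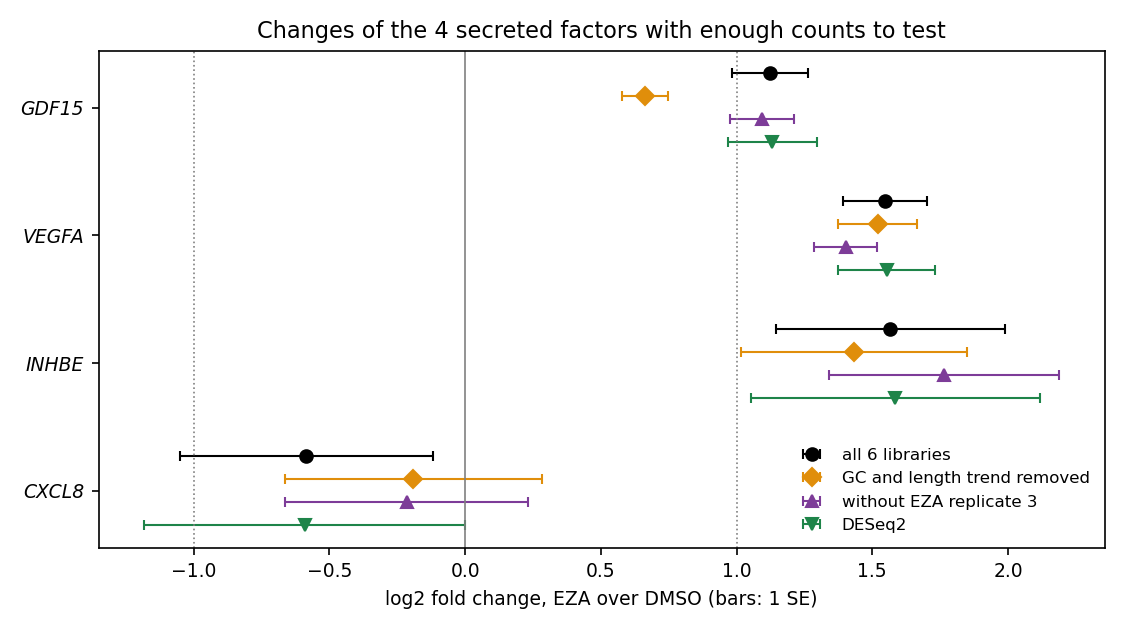
Log2 fold change, EZA over DMSO, with bars of 1 SE, of the 4 secreted factors with enough counts to test, from the edgeR test on all 6 libraries and under 3 alternatives; dotted lines mark a 2-fold change. GDF15 shifts to 0.66 when the GC and length trend is removed, VEGFA stays between 1.40 and 1.55, and the bars of INHBE and CXCL8 are wide.

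FGF21 (ENSG00000105550, chromosome 19, 48755524 to 48758333) had 6 counts in EZA replicate 2 and 0 counts in EZA replicates 1 and 3 and in all 3 DMSO replicates. STC2 (ENSG00000113739, chromosome 5, 173314723 to 173328447) had 0 counts in the 3 EZA libraries and 0, 1 and 0 counts in DMSO replicates 1 to 3. FGF19 (ENSG00000162344, chromosome 11, 69698238 to 69704022) and ADM2 (ENSG00000128165, chromosome 22, 50481543 to 50486440) had 0 counts in all 6 libraries. A count of 0 allows up to 3 counts, or 0.166 to 0.212 CPM in EZA libraries and 0.188 to 0.192 CPM in DMSO libraries, counting error only. These 4 genes did not enter the test, which 57.6% of the 19831 protein-coding genes in the table entered. Like FGF19 and ADM2, 25.2% of these protein-coding genes were at 0 in every library. With no filter on low counts FGF21 had an unadjusted p of 0.0418 and an adjusted p of 0.207 by edgeR, which passes the study's threshold but not the adjusted one, and all its counts came from EZA replicate 2. STC2 had an adjusted p of 0.589 in that fit. ADM2 overlaps SBF1 on the opposite strand, and 131 of the 4213 bases of its canonical transcript lie under exons of SBF1.

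Levels between genes were compared per length, on the FPKM the authors deposited. In EZA the order was GDF15 at 42.1 ± 2.18, VEGFA at 6.26 ± 1.02, INHBE at 0.535 ± 0.165 and CXCL8 at 0.264 ± 0.154 FPKM (SD, n = 3 each). In DMSO the order was GDF15 at 19.2 ± 2.72, VEGFA at 2.13 ± 0.145, CXCL8 at 0.401 ± 0.0121 and INHBE at 0.178 ± 0.0808 FPKM. INHBE and CXCL8 thus stood in opposite order in the groups; their libraries overlapped in EZA, at 0.368 to 0.698 and 0.0914 to 0.385 FPKM, and were apart in DMSO, at 0.104 to 0.265 and 0.388 to 0.411 FPKM. Among the 13503 genes tested, the mean FPKM of GDF15 lay above 91.9% in EZA and 81.9% in DMSO. That of VEGFA lay above 55.0% in EZA and 30.7% in DMSO. These ranks rest on the length behind the deposited FPKM of each gene. Per kilobase of the canonical transcript VEGFA was at 25.3 CPM in EZA and 8.67 CPM in DMSO. GDF15 was at 74.0 CPM in EZA and 34.0 CPM in DMSO on that scale, on which ranks were not taken. The ratio of VEGFA to GDF15 counts, which does not depend on how libraries are scaled, was 1.04, 0.869 and 1.18 in EZA replicates 1 to 3, against 0.832, 0.709 and 0.777 in DMSO replicates 1 to 3. The groups did not overlap, and the two-sided exact permutation p was 0.1, the smallest that 3 against 3 libraries can give.

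By the profile over the 6 libraries, given as log2 CPM relative to a gene's own DMSO mean, the 3 genes nearest to GDF15 among 10392 with at least 5 CPM were ECI1, FBXW4 and NEU1, at root mean square distances of 0.05, 0.05 and 0.06. The nearest to VEGFA were GRB10, AP5Z1 and ENSG00000272405, at 0.03, 0.08 and 0.10. The nearest to INHBE were LINC00662, DDIT3 and PSPH, at 0.29, 0.32 and 0.34, a looser likeness. INHBE had 5 to 38 counts in a library, so its distances include counting noise. Shared regulation was not tested for any of these genes.

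The factors were read beside other targets of the same stress response. Of 21 such genes 20 were tested, 18 were called higher and 0 lower (NUPR1, a stress-induced chromatin protein, entered the test through the EZA group), and their median log2 fold change was 2.12, against -0.01 over all genes tested. TRIB3, a pseudokinase, SESN2, a sestrin, SLC7A11, the cystine transporter, and CHAC1, a glutathione-degrading enzyme, had log2 fold changes of 3.57, 3.11, 3.88 and 5.50 (edgeR adjusted p of at most 4.42e-05). GDF15 had a smaller log2 fold change than 17 of these 20 genes, and VEGFA and INHBE each a smaller one than 15 of them. VLDLR, a lipoprotein receptor, was the listed gene left out of the test, with 1 count over the EZA libraries and 9 over the DMSO libraries. The list was named with earlier results of these libraries known, so its direction is not independent evidence.

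Lists of other pathways known to act on single factors were counted in the same way. Beside these and the later lists, 9.89% of all genes tested were called higher and 7.82% lower, with a median log2 fold change of -0.01. VEGFA is a classical target of hypoxia-inducible factors. Of 18 hypoxia response genes 16 were tested, 0 were called higher and 3 lower, with a median log2 fold change of -0.23. LDHA, lactate dehydrogenase A, fell to 567 ± 79.0 CPM in EZA, against 1033 ± 73.6 CPM in DMSO (SD, n = 3 each), EGLN1, an oxygen-sensing prolyl hydroxylase, had a log2 fold change of -0.51 and PFKFB4 of -0.53 (edgeR adjusted p of 0.0102, 0.0285 and 0.0381). After the GC and length correction 1 gene was called higher and 2 lower, EGLN1 no longer among them. Over the fits that leave out a library 0 to 1 were higher and 0 to 5 lower. There were 0 lower without DMSO replicate 1 or 3, and 5 without EZA replicate 3, a fit that tested 17 of the 18. With all libraries CA9 and EGLN3 did not enter the test. They had 4 and 8 counts over the EZA libraries, against 53 and 7 over the DMSO libraries.

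GDF15 is also known as a target of p53. Of 18 tested p53 targets 6 were called higher and 1 lower, with a median log2 fold change of 0.27. BBC3, a pro-apoptotic BCL2 relative, rose to 62.9 ± 2.75 CPM in EZA, against 21.8 ± 4.75 CPM in DMSO, and GADD45A, a stress sensor, had a log2 fold change of 1.45 ± 0.24 (SE). CDKN1A, the cell cycle inhibitor p21, had a log2 fold change of 0.50 and ZMAT3, an RNA-binding protein, of -0.48 (edgeR adjusted p of 0.0296 and 0.0315). After the GC and length correction 3 were called higher and 0 lower; BBC3 was then at 0.88, against 1.53 before it, and CDKN1A and ZMAT3 were not called. Leaving out a library gave 1 to 8 higher and 0 to 3 lower, with 1 higher without DMSO replicate 1, 2 without DMSO replicate 2 or 3, and 0 lower in all of these.

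CXCL8 is a classical NF-kB target. Of 17 NF-kB targets 11 were tested, 0 were called higher and 1 lower, with a median log2 fold change of -0.07. The gene called lower was BIRC3, an inhibitor of apoptosis, with 74, 77 and 66 counts in EZA replicates 1 to 3, against 212, 180 and 206 counts in DMSO replicates 1 to 3 (log2 fold change -1.48 ± 0.16, SE, with an adjusted p of 0.00180 by edgeR). Without EZA replicate 3, 3 were called higher and 3 lower. The related chemokines CXCL1 and CXCL2 had 5 counts each over the EZA libraries, against 16 and 17 over the DMSO libraries, and CXCL3 had 21 over the EZA libraries and 15 over the DMSO libraries; all 3 had too few to test. Of 14 genes of the ER unfolded protein response 3 rose and 0 fell, with a median log2 fold change of 0.20. XBP1, a transcription factor, rose by 1.30 on the log2 scale, HERPUD1, of ER-associated degradation, by 1.34, and DNAJB9, a co-chaperone, by 0.61 (edgeR adjusted p of 0.00175, 0.00451 and 0.0231). Without EZA replicate 3, 3 of these genes were called higher and 2 lower.

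**Figure D4:**
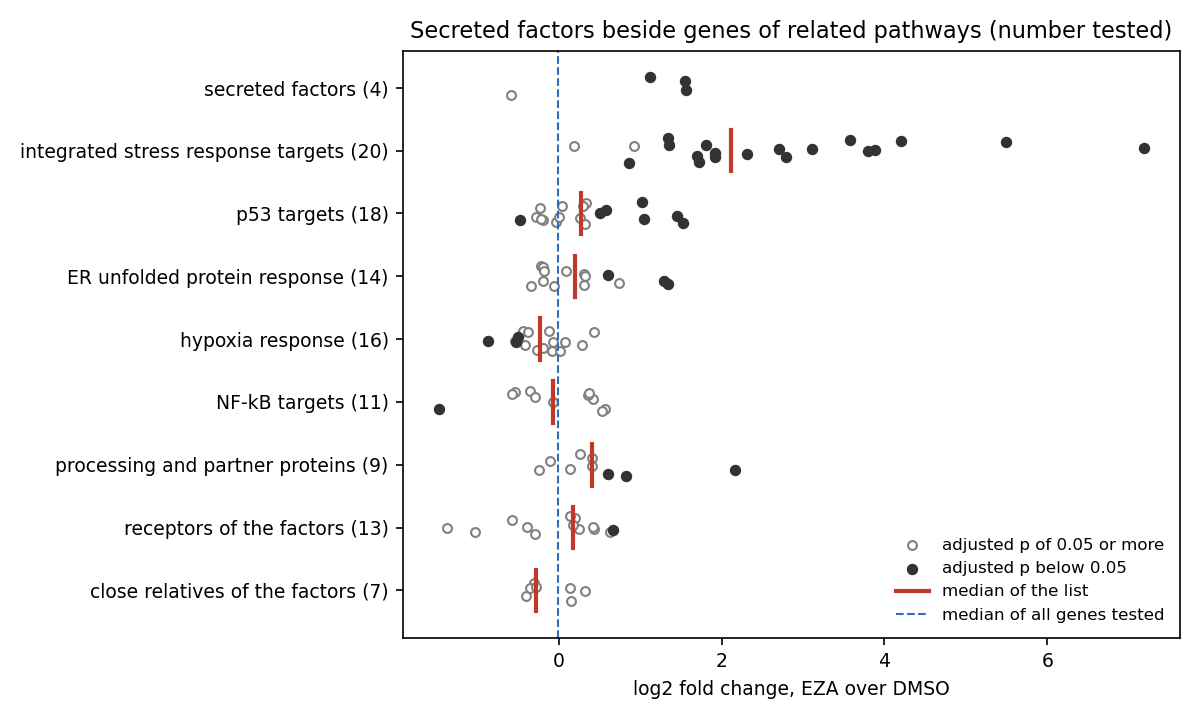
Log2 fold change, EZA over DMSO, of each tested secreted factor (top row) and of the tested genes in 8 related lists, filled where the adjusted p was below 0.05; red bars give list medians and the dashed line the median of all genes tested. Stress response targets have a median of 2.12, while the medians of the other lists lie between -0.28 and 0.41.

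None of the tested close relatives of the factors was called by edgeR on all 6 libraries. STC1, the paralogue of STC2, had 20678, 23029 and 8330 counts in EZA replicates 1 to 3, against 22781, 19538 and 21412 counts in DMSO replicates 1 to 3. EZA replicate 3 was the low library. The log2 fold change was -0.35 (edgeR adjusted p = 0.399) with it and -0.06 (0.692) without it. On the FPKM scale STC1 averaged 253 in the 3 EZA libraries, or 310 without replicate 3, and 318 in DMSO, above all 8 factors. Of 26 relatives 7 were tested and 0 were called in either direction by edgeR, DESeq2 or limma-voom, also at an unadjusted p below 0.05 in the edgeR test; without EZA replicate 3, VEGFB was called higher, at a log2 fold change of 0.35 (adjusted p = 0.0140), against 0.15 with all libraries and -0.26 after the GC and length correction. The log2 fold changes of GDF11 and TGFB1 were -0.40 and -0.28 with all libraries, and -0.08 and -0.03 without EZA replicate 3. The other 6 tested relatives were PGF and VEGFB, ligands of the VEGF family, ADM, the relative of ADM2, and GDF11, TGFB1 and TGFB3 of the TGF-beta family.

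Receptors for several factors were at or near 0. Of 24 receptors and co-receptors, 8 had 0 counts in every library, among them GFRAL, the receptor of GDF15, CXCR1 and CXCR2, the receptors of CXCL8, and FLT1, a receptor of VEGFA. KDR, the main signalling receptor of VEGFA, had 0 counts over the EZA libraries and 2 over the DMSO libraries. RET, the partner of GFRAL, had 11 over the EZA libraries and 7 over the DMSO libraries. ACVR1C, an activin receptor, had 0 counts over the EZA libraries and 4 over the DMSO libraries. KLB, which FGF21 and FGF19 need, had 14 counts over the EZA libraries and 37 over the DMSO libraries, with no called change (log2 fold change -1.38, edgeR adjusted p = 0.133). It entered the test through the DMSO group, and without EZA replicate 3 it was called lower (-1.87, adjusted p = 0.0217). Of the 13 receptors tested FGFR1 had the highest level, with a mean of 14.1 FPKM in EZA and 12.2 FPKM in DMSO, followed in EZA by the activin receptor ACVR1B at 9.39, RAMP1 at 6.94, FGFR3 at 5.62, NRP1 at 4.90 and FGFR4 at 4.82 FPKM. The other 7 lay lower, with means of 2.80 for ACVR2B, 1.16 for ACVR2A, 0.753 for FGFR2, 0.721 for TGFBR3, 0.182 for NRP2, 0.0719 for CALCRL and 0.0502 for KLB in EZA.

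FGFR3, a fibroblast growth factor receptor, was the 1 receptor called, with 391, 427 and 485 counts in EZA replicates 1 to 3, against 252, 276 and 289 counts in DMSO replicates 1 to 3. It differed by 0.67 ± 0.18 on the log2 scale (SE), with an adjusted p of 0.0336 by edgeR, against a median of 0.17 over the tested receptors. The call was lost without EZA replicate 1, without each DMSO replicate in turn and after the GC and length correction. Without EZA replicate 3, FGFR3 stayed called higher, and 3 receptors were called lower, KLB, TGFBR3 and FGFR2. TGFBR3 was then at a log2 fold change of -0.93 and FGFR2 at -0.63 (edgeR adjusted p of 0.000120 and 0.0104). With all libraries these 2 were at -0.58 and -0.39 and were not called.

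**Figure D5:**
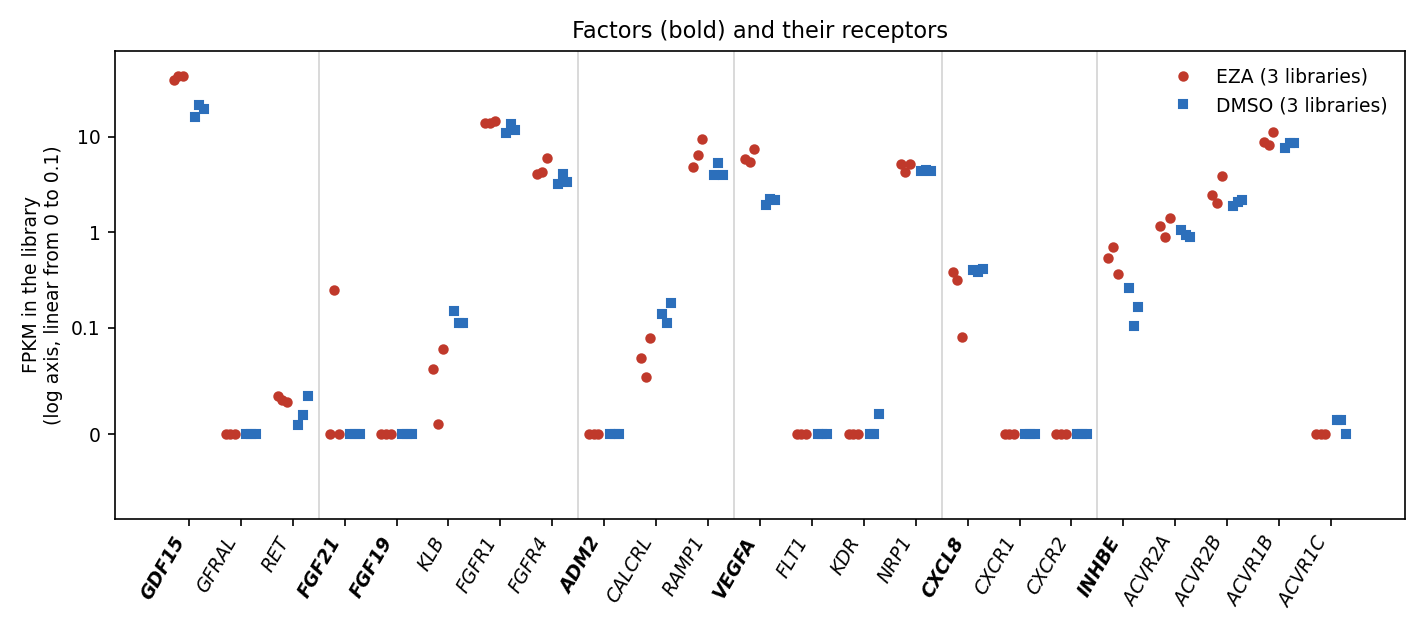
Deposited FPKM in each library, on a log axis that is linear from 0 to 0.1, of 7 secreted factors (bold) and of receptors for them, with EZA as red circles and DMSO as blue squares. GDF15 has the highest level among the factors in both groups and FGFR1 the highest mean among the receptors.

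Of 14 proteins that process the factors or bind them and their targets, 9 were tested, 3 were called higher and 0 lower, with a median log2 fold change of 0.41. PCSK6, a proprotein convertase, was at 36.5 ± 0.553 CPM in EZA and 23.9 ± 1.95 CPM in DMSO, and FSTL3, which binds activins, at 25.6 ± 7.07 CPM in EZA and 14.5 ± 1.94 CPM in DMSO (SD, n = 3 each). PAPPA2, a protease related to PAPP-A, had 12, 13 and 21 counts in EZA replicates 1 to 3, against 4, 5 and 1 counts in DMSO replicates 1 to 3. It entered the test through the EZA group, with 3 EZA libraries and 0 DMSO libraries at the minimum of the filter, so its place among the 3 called is no support for a direction. Their log2 fold changes were 0.61, 0.82 and 2.16 (edgeR adjusted p of 0.0174, 0.0312 and 0.0357). Without each DMSO replicate in turn 0 of the 9 were called, without EZA replicate 3 5 were called higher, and after the GC and length correction 2 were, with FSTL3 at a log2 fold change of 0.33 and not called.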

How the data were processed

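Libraries were unstranded and poly(A)-selected, per the labels' protocols. GRCh38 is the build, and HISAT2, featureCounts, FastQC and DESeq2 the tools, listed in the submitters' processing notes; the counting annotation, versions and options are not given there. Per the file headers, the authors deposited a raw count and an FPKM value for each Ensembl gene in each library; the deposited FPKM equal counts over 1 length per gene and 1 total per library.

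Symbols, positions, GC content and transcript lengths came from GENCODE 44, in which 58207 of 58735 identifiers were found. The deposited counts were filtered (filterByExpr), scaled to CPM with TMM factors, and compared in edgeR 4.0.16 (R 4.3.3) by its robust quasi-likelihood test, two-sided, with Benjamini-Hochberg adjustment over 13503 genes. The procedure was also run on simulated counts, with outcomes not given here, so that run is no support for the calls. Libraries held 14070611 to 18840954 counts, and the limit of 3 counts covers counting error only, while the interval of a log2 fold change comes from the edgeR test and includes the spread among libraries. The biological coefficient of variation was 18.4%. Replicates of a group differed by more than counting noise. Alternatives were DESeq2 size factors, library size alone, FPKM totals, no filter, DESeq2 1.42.0, limma-voom (limma 3.58.1), a replicate block, removal of the GC and length trend (lowess, span 0.3), and leaving out each library.

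The 8 factors and all gene lists were chosen with earlier results of these data known. Named genes were the 8 factors, up to 4 called genes of each list with the smallest adjusted p and up to 2 that changed the other way, every tested receptor by level, and for each factor called with at least a 2-fold change the 3 nearest profiles. Relatives of the factors, receptors and chemokines with too few counts to test, VLDLR, NUPR1, CA9 and EGLN3 fall outside this rule. They were picked after their values were seen. SOD2, in the NF-kB list, was not analysed here.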

Additional observations from a re-analysis of the deposited data

How the results depend on the processing

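GDF15 and VEGFA kept their direction and their call in all 16 alternatives, CXCL8 was called in none, and INHBE lost its call in 7. The number of genes called, 2392 of 13503, was 1538 with the GC and length trend removed, 602 with that and a replicate block, and 220 to 5329 when a library was left out, the lowest without DMSO replicate 1 and the highest without EZA replicate 3 with the trend removed (5289 without that library alone). Over the gene lists together 36 genes were called, and 22 to 63 when a library was left out (59 without EZA replicate 3 alone). Library size alone as the scaling gave 1059 genes higher and 1270 lower, against 1336 and 1056, and a median log2 fold change over all genes of -0.06, against -0.01. The study's threshold passed 774 genes, and 1340 with no filter, 492 with the trend removed and 499 with that and the block. The level of GDF15 over VEGFA was 6.73 in EZA and 9.02 in DMSO on deposited FPKM. It was 2.92 in EZA and 3.92 in DMSO as CPM per kilobase of the canonical transcript. Within a library the scales differ, between genes, only in the length by which counts are divided. Same-numbered libraries showed no sign of deviating together (correlations of 0.03, -0.17 and 0.03). With 3 libraries a group, and EZA replicate 3 apart from the others, these values cannot exclude that the numbers pair the samples. With a replicate block 1970 genes and the same count of 3 factors were called. At 3 libraries a group, genes of a few counts, as INHBE and CXCL8, have wide intervals, and STC2, FGF19 and ADM2 lie under the limit of 3 counts in every library, as does FGF21 in all but EZA replicate 2. With no filter 4 factors passed the study's threshold, FGF21 being added, and after the GC and length correction 2 did, without GDF15.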
